A study of Mus musculus with 4 samples.

Results

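The entries described here are the mouse class I endogenous retrovirus (ERV1) subfamilies apart from VL30, as counted in total RNA of mouse embryonic fibroblasts (MEF cells). They were chosen by name from a count table of genes and repeat subfamilies. An entry belonged if its class was LTR and its family was ERV1, and the VL30 internal entry MMVL30-int and the 4 entries whose names start with RLTR6 were left out. This gave 113 of the 1445 repeat subfamilies in the table. Of these, 23 were internal entries, whose names end in -int, and 90 were LTR entries. The 3 entries of the uncertain family ERV1? were not included.

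The study compared 2 libraries of wild-type, untreated MEF cells with 2 libraries of MEF cells exposed to 50 µM genistein, a plant isoflavone, for 24 h. The genotype label of the treated libraries reads "Genistein treated", and the cells of all 4 libraries are labelled as the MEF cell line. In its methods the study gave control cells DMSO, the solvent of genistein, while the library titles say control and name no solvent. No label says whether the replicates came from separate cultures, so the p-values measure the spread between these libraries, which may be technical. The study made these libraries to see how repeats of every class respond to genistein. It reported the major satellite as the most significantly raised, with a modest increase for endogenous retroviruses.

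An endogenous retrovirus is the remnant of a virus that integrated into the germ line. An intact copy has an internal part, which codes for the viral proteins, between a pair of long terminal repeats (LTRs), which hold the promoter and the end of the transcript. Recombination between the LTRs of a copy removes the internal part and leaves a solitary LTR, so LTR entries also count many LTRs with no virus body beside them. ERV1 elements resemble gammaretroviruses such as murine leukemia virus. In embryonic cells such elements are silenced by KRAB zinc finger proteins, which recruit Trim28 and the H3K9 methyltransferase Setdb1, and in differentiated cells DNA methylation takes a large part in their silencing. A subfamily count adds up copies all over the genome and has no single coordinate. The counts are not corrected for length or copy number, so levels are compared between libraries and not between subfamilies. No consensus sequences of these subfamilies were used here.

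The libraries held from 28591958 to 31464284 counts over genes and repeats, and repeats took from 11.97% to 14.64% of them. The entries counted as ribosomal RNA repeats made up 1.79% and 1.59% of the untreated libraries and 3.62% and 2.69% of those with genistein. The ERV1 subfamilies held 20137 and 19873 reads in untreated cells and 28119 and 24876 after genistein, from 0.0655% to 0.0894% of a library. Of the 7 listed fibroblast markers, 6 were abundant, among them Col1a1 (68036 to 81277 normalised counts), and Thy1 had no reads in any library. With genistein 5 of the 6 fell, from -0.17 on the log2 scale for Col1a1 to -0.73 for Pdgfrb, and Fn1 rose (0.20). Of the other listed markers, Epcam, Adgre1, Zfp42 and Myod1 had no reads. The pluripotency gene Nanog had 26 and 25 reads in untreated cells and 38 and 41 after genistein. Pou5f1, also of that list, had 7 and 10 in untreated cells and 14 and 15 after genistein. Both were higher in both genistein libraries but did not pass (adjusted p = 0.052 and 0.14, edgeR). The epithelial keratin genes Krt8 and Krt18 fell with genistein (log2 fold changes of -1.74 and -2.76), and the macrophage gene Cd68 rose (1.5), while Ptprc had at most 1 read in a library. The part of these shifts in the results below was not tested.

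Most ERV1 subfamilies were higher with genistein, but the rise was uneven, and the entries with the most reads divided into higher and lower ones. The 113 subfamilies together had normalised counts, which are scaled to a common library size, of 20116 and 21039 in untreated cells and 26367 and 25179 after genistein. This was a log2 ratio of 0.32, and both genistein libraries lay above both untreated ones. The internal entries held 10069 and 10575 normalised counts in untreated cells and 11424 and 10564 after genistein, so the groups overlapped (log2 ratio 0.09). The LTR entries held 10048 and 10464 in untreated cells and 14943 and 14615 after genistein, with no overlap (log2 ratio 0.53). Internal entries therefore took 50.1% and 50.3% of the ERV1 reads in untreated cells and 43.3% and 42.0% after genistein. No test was made on these sums, since 2 libraries against 2 cannot give an exact two-sided permutation p below 0.33.

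Of the 113 subfamilies, 86 passed the filter on low counts and were tested, 17 internal and 69 LTR entries. The other 27 had at most 16 reads in a library, and 8 of them had no read in any library, which allows up to 3 reads in each. All the untested entries together had 65 and 45 reads in untreated cells and 99 and 73 after genistein. Each subfamily was compared with edgeR's quasi-likelihood test on the whole table, with Benjamini-Hochberg adjustment over 17358 genes and repeats.

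At an adjusted p-value under 0.05, 56 of the 86 ERV1 subfamilies rose (65.1%), 5 fell and 25 did not pass. The background was 36.2% of all entries and 76.3% of all repeats for a rise. For a fall it was 36% of all entries and 2.86% of all repeats, beside 5.81% of the ERV1 subfamilies. DESeq2 called 34 higher and 5 lower. The median log2 fold change was 0.59 over the ERV1 subfamilies, 0.69 over all 1118 tested repeats and -0.03 over all tested genes. Both genistein libraries lay above both untreated libraries for 64 ERV1 subfamilies (74.4%), against a background of 43.4% of all entries and 83.8% of all repeats. The ERV1 share of risers was thus above that of all entries and below that of repeats.

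The study's thresholds also asked for a log2 fold change beyond 1 in size and for a mean of more than 100 normalised counts. Past all of them, 2 ERV1 subfamilies rose and none fell. The background for a rise was 3.91% of all entries and 3.67% of repeats. For a fall it was 3.92% of all entries and 4 of 1118 repeats. The lowest log2 fold change was -0.48, and at an adjusted p under 0.05 alone 5 subfamilies were lower by edgeR and 5 by DESeq2. The 2 that passed were the LTR entries MER31A and RLTR14.

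The internal entries were closer to no change than the LTR entries. Of 17 internal entries, 6 rose and 3 fell, with a median log2 fold change of 0.25 and a range from -0.48 to 0.96. Of 69 LTR entries, 50 rose and 2 fell, with a median of 0.63 and a range from -0.42 to 1.47. Of the internal entries, 3 lay above the median of all repeats, as did 29 of the LTR entries. Without untreated 2 the median of the internal entries was 0.48. That fit applied the filter on low counts anew and tested 91 ERV1 subfamilies instead of 86. The part of the library and that of the added entries in this shift cannot be told apart. The difference between internal and LTR entries was not tested. The other LTR families were not split in this way, so the difference is not shown to be particular to ERV1. In ERVK, with a median of 0.56, internal entries such as IAPEz-int (0.35) and MMERVK10C-int (-0.32) lay below that median. Others, such as RMER17A-int (0.94), lay above it.

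**Figure D1:**
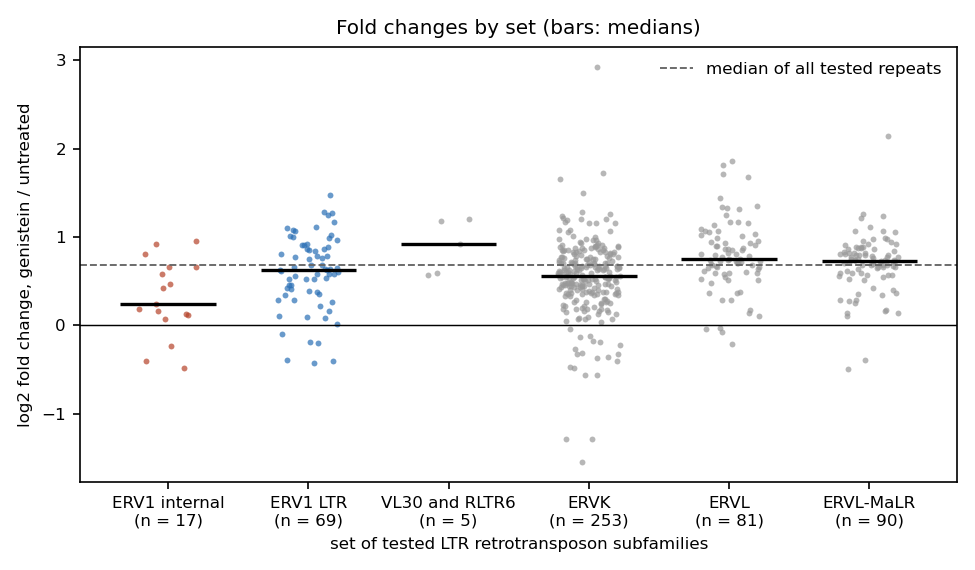
Log2 fold change (genistein against untreated, vertical axis) of each tested subfamily of 6 sets of LTR retrotransposons, with a bar at the median of a set and a dashed line at the median of all tested repeats (0.69). The internal ERV1 entries centre on 0.25 and the ERV1 LTR entries on 0.63, while the VL30 and RLTR6 entries centre on 0.92.

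The internal entries MuLV-int and RLTR4_MM-int, both of murine leukemia virus, were not called higher. MuLV-int, the internal part of murine leukemia virus copies, had normalised counts of 1870 and 1908 in untreated cells and of 1393 and 1310 after genistein. Both genistein libraries lay below both untreated ones, and the log2 fold change was -0.48 (standard error 0.05, adjusted p = 8.1e-08, edgeR). RLTR4_MM-int, another internal entry of this virus group and the ERV1 entry with the most reads, had 2398 and 2640 in untreated cells and 2755 and 2541 after genistein. Its groups overlapped, and its log2 fold change of 0.07 did not pass (standard error 0.05, adjusted p = 0.19, edgeR). It passed as higher with factors from genes alone (0.12, adjusted p = 0.044), with library totals (0.14, adjusted p = 0.014), without untreated 2 (0.14, adjusted p = 0.011) and without genistein 2 (0.13, adjusted p = 0.027). The LTR entry of the same name, RLTR4_Mm, had 1362 and 1395 in untreated cells and 1215 and 1188 after genistein, lower in both (log2 fold change -0.20, standard error 0.05, adjusted p = 0.0016, edgeR).

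MuLV-int and RLTR4_MM-int are close in sequence, so how their shared reads were divided between them is uncertain. Their counts were added after these values had been seen. The sum was 4269 and 4548 in untreated cells and 4148 and 3850 after genistein, lower in both genistein libraries by a log2 ratio of -0.14. With RLTR4_Mm added as well, the sum was 5630 and 5944 in untreated cells and 5364 and 5039 after genistein. In both sums the genistein libraries lay below the untreated ones, and no test was made.

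The other internal entries that fell were MER34B-int and MMERGLN-int. MER34B-int, the internal part of an old element, had 1572 and 1561 normalised counts in untreated cells and 1187 and 1178 after genistein. The replicates nearly coincided, and the log2 fold change was -0.41 (standard error 0.05, adjusted p = 7.4e-07, edgeR). MMERGLN-int, a retrovirus named for the glutamine tRNA that primes it, had 1242 and 1273 in untreated cells and 1179 and 964 after genistein. Its log2 fold change was -0.23 (standard error 0.07, adjusted p = 0.0092, edgeR), but genistein 2 decided the call, since without it the value was -0.09 (adjusted p = 0.19).

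The internal entry with the largest rise among those with many reads was RLTR1B-int, from a rodent element. Its normalised counts were 1288 and 1350 in untreated cells and 2590 and 2400 after genistein, with no overlap. The log2 fold change was 0.92 (standard error 0.05, adjusted p = 3.5e-11, edgeR), a 1.89-fold rise. This single entry accounted for 22.6% of the net gain of ERV1 reads. Of the gain, 54.6% came from RLTR1B-int and the LTR entries MLTR14 and RMER5 together.

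MuRRS-int, MERV1_I-int and RodERV21-int, with fewer reads, also rose, by less than RLTR1B-int. MuRRS-int, a murine retrovirus-related sequence, had 381 and 443 in untreated cells and 570 and 565 after genistein (log2 fold change 0.47, standard error 0.08, adjusted p = 4.3e-05, edgeR). MERV1_I-int had 151 and 187 in untreated cells and 269 and 235 after genistein (0.58, standard error 0.12, adjusted p = 0.00038, edgeR). RodERV21-int, a rodent element, had 87.9 and 88.9 in untreated cells and 167 and 143 after genistein (0.81, standard error 0.14, adjusted p = 6.7e-05, edgeR). In all these entries both genistein libraries lay above both untreated ones.

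RLTR14-int and MuRRS4-int did not pass. RLTR14-int had 594 and 644 in untreated cells and 722 and 634 after genistein, which overlap (log2 fold change 0.13, standard error 0.07, adjusted p = 0.10, edgeR). It passed with library totals (0.20, adjusted p = 0.013), with factors from genes alone (0.18, adjusted p = 0.036) and without genistein 2 (0.22, adjusted p = 0.0054). MuRRS4-int had 265 and 242 in untreated cells and 270 and 301 after genistein, a narrow separation (0.17, standard error 0.10, adjusted p = 0.13, edgeR), and it passed with library totals (0.24, adjusted p = 0.037).

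**Figure D2:**
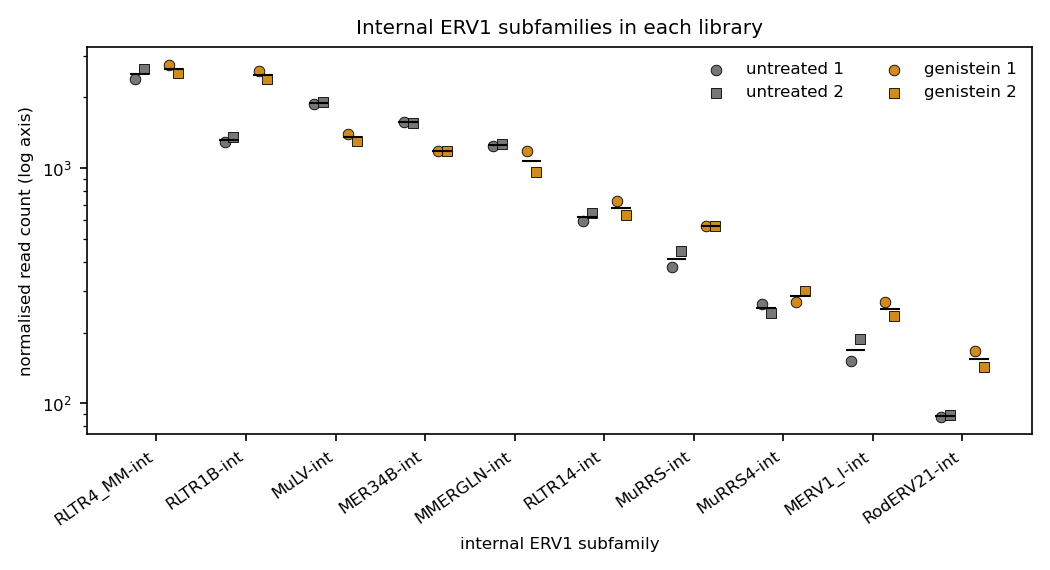
Normalised read count (vertical log axis) of the 10 internal ERV1 subfamilies with a mean over 100, with a point for each of the 4 libraries and a bar at the mean of each group of 2. RLTR1B-int has a mean of 1319 in untreated cells and of 2495 after genistein, while MuLV-int, MER34B-int and MMERGLN-int sit lower after genistein.

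The LTR entries formed the bulk of the rise. MER31A, an old mammalian LTR, had 129 and 97.4 normalised counts in untreated cells and 242 and 249 after genistein. The log2 fold change was 1.11 (standard error 0.13, adjusted p = 7.8e-07, edgeR), the largest of the LTR entries with a mean over 100. RLTR14, a rodent LTR, had 340 and 309 in untreated cells and 659 and 659 after genistein. Its rise was 2.03-fold (log2 fold change 1.02, standard error 0.07, adjusted p = 1.9e-09, edgeR). These 2 were alone among ERV1 subfamilies in passing every threshold, and both lay close to the fold threshold. Without untreated 2 neither passed it (MER31A 0.92, RLTR14 0.95), and with no filter on low counts RLTR14 did not (0.99).

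RMER2, an LTR that fell just short of that threshold, had 284 and 284 in untreated cells and 554 and 571 after genistein. The log2 fold change was 0.99 (standard error 0.07, adjusted p = 4.5e-09, edgeR). MLTR14, the LTR entry with the most reads, had 1354 and 1433 in untreated cells and 2416 and 2393 after genistein (0.79, standard error 0.04, adjusted p = 7.3e-11, edgeR). In both, the genistein libraries lay above the untreated ones by far more than the replicates differed.

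The rodent LTRs RLTR30, RLTR24, RLTR1D, RLTR1B, LTRIS2 and MURVY-LTR came next, with log2 fold changes from 0.78 down to 0.64. RLTR30 had 201 and 180 in untreated cells and 343 and 313 after genistein. RLTR24 had 217 and 228 in untreated cells and 380 and 379 after genistein. LTRIS2 had 204 and 246 in untreated cells and 355 and 349 after genistein. RLTR1D and MURVY-LTR, the LTR of a retrovirus repeated on the Y chromosome, were lower in reads, from 108 to 136 in untreated cells and from 173 to 206 after genistein. The 6 entries all had standard errors from 0.07 to 0.12 and adjusted p-values from 6.1e-07 to 0.0001 (edgeR), and none of them overlapped between groups. They were named for their large fold changes, so this separation follows in part from the choice. Both genistein libraries lay above both untreated ones in 24 of the 27 LTR entries with a mean over 100 (88.9%). The background was 83.8% of all repeats.

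At the other end lay LTR entries that fell or did not pass. RLTR30D_RN had 273 and 284 in untreated cells and 221 and 199 after genistein, lower in both (log2 fold change -0.40, standard error 0.10, adjusted p = 0.0016, edgeR). It and RLTR4_Mm were the only LTR entries of the 69 tested that passed as lower. MMERGLN_LTR had 235 and 237 in untreated cells and 223 and 217 after genistein, below them but not past the test (-0.10, standard error 0.10, adjusted p = 0.36, edgeR). RLTR1A2_MM had 106 and 116 in untreated cells and 118 and 118 after genistein (0.09, standard error 0.13, adjusted p = 0.56, edgeR). RLTR14_RN had 196 and 217 in untreated cells and 237 and 258 after genistein (0.26, standard error 0.10, adjusted p = 0.030, edgeR), and its call was lost with DESeq2 (0.25, adjusted p = 0.21), with no filter, and without untreated 1 or genistein 2.

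**Figure D3:**
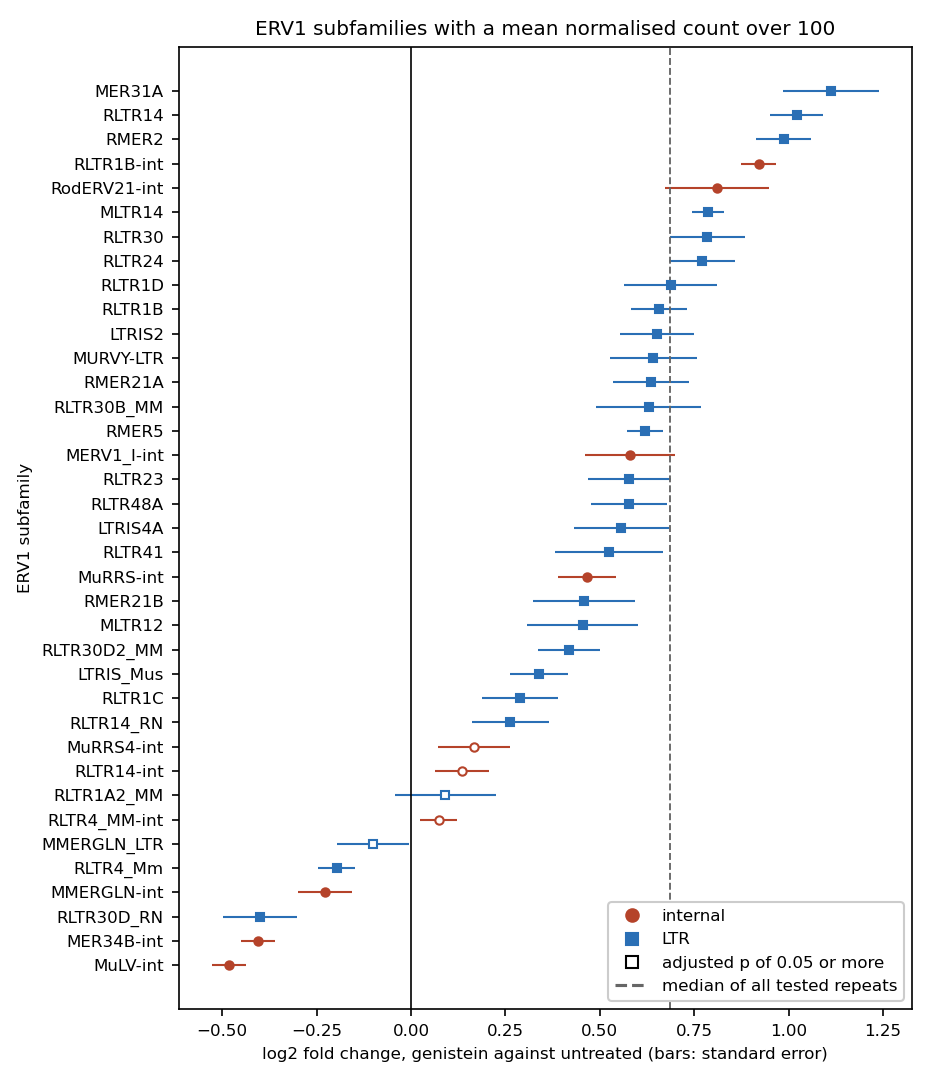
Log2 fold change (horizontal axis, genistein against untreated, bars give the standard error) of the 37 ERV1 subfamilies with a mean normalised count over 100, internal entries as circles and LTR entries as squares, open where the adjusted p was 0.05 or more. The order runs from MuLV-int at -0.48 to MER31A at 1.11, and 9 of the 37 lie above the dashed median of all repeats.

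Entries whose names start alike did not always move alike. The 7 tested RLTR30 entries ranged from -0.40 for RLTR30D_RN to 0.96, and 5 rose while 1 fell. The 8 tested LTRIS entries ranged from 0.02 to 1.10, and 7 of them rose. The 3 RLTR48 entries rose by 0.58 to 1.27 and the 4 RMER entries by 0.46 to 0.99. Of the 6 tested MER34 entries, 4 rose and 1, the internal entry MER34B-int, fell, over a range from -0.41 to 1.17. The background for a rise was 36.2% of all entries and 76.3% of all repeats, so such counts do not set these groups apart.

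Names that mark rodent elements and names of older or wider elements gave like medians. The 44 tested rodent-named entries had 0.58 as their median log2 fold change, with 30 rises and 4 falls. The 42 others had a median of 0.62 with 26 rises and 1 fall, although their standard errors were larger (median 0.21 against 0.12). The second group also holds entries such as RMER2, RMER5, MLTR14 and RodERV21-int, which the naming rule did not count as rodent names. Within the internal entries, the 8 rodent-named ones had a median of 0.15 and the 9 others 0.58, and among LTR entries the medians were 0.64 for 36 rodent-named ones and 0.62 for 33 others. Summed counts differed from these medians. The log2 ratio was 0.39 for rodent-named LTR entries and 0.69 for the other LTR entries. It was 0.14 for rodent-named internal entries and -0.12 for the others, which fell from 1992 and 2019 to 1891 and 1796. MER34B-int alone had 1572 and 1561 of these in untreated cells. The sums were not tested.

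For 6 elements the names of an internal and an LTR entry matched once the endings -int, -I, _LTR and -LTR were removed, and both were tested. A further pair that this rule missed, MERV1_I-int and MERV1_LTR, was added after its values were seen, and it had 0.58 and 0.54 with standard errors of 0.12 and 0.22. The largest gap was that of RLTR14, whose LTR rose by 1.02 and whose internal entry had 0.13, a difference of -0.89. The log2 ratio of internal to LTR reads was 0.81 and 1.06 in untreated cells and 0.13 and -0.06 after genistein, with no overlap. MURVY went the same way, with 0.64 for the LTR and 0.19 for MURVY-int, which had 39.0 and 57.2 normalised counts in untreated cells and 53.4 and 55.7 after genistein. RLTR14_RN, a further LTR entry with the RLTR14 name, was not matched by the rule. It had 0.26 (standard error 0.10), so the size of the RLTR14 gap depends on which LTR entry is taken.

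In RLTR1B and RLTR4 the internal entry lay above its LTR. RLTR1B-int had 0.92 and RLTR1B 0.66, which had 335 and 350 in untreated cells and 524 and 557 after genistein. For RLTR4 the values were 0.07 and -0.20, and the log2 ratio of internal to LTR reads was 0.82 and 0.92 in untreated cells and 1.18 and 1.10 after genistein. MMERGLN and MER34B had differences, internal less LTR, of -0.13 and -0.21, beside standard errors of 0.10 and 0.17 for the LTR values. The gap between internal and LTR entries was therefore not of 1 sign over these elements, and it was not tested.

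**Figure D4:**
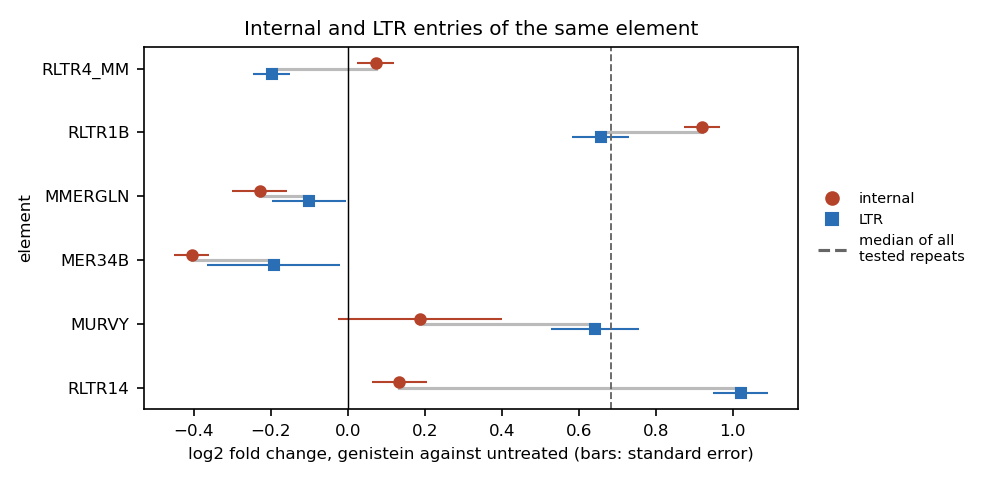
Log2 fold changes (horizontal axis, genistein against untreated, bars give the standard error) of the internal entry (circle) and the LTR entry (square) of 6 elements with matching names. The RLTR14 LTR stands at 1.02 and its internal entry at 0.13, while in RLTR1B and RLTR4 the internal entry lies to the right of the LTR.

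Calls were split more evenly among the entries with the most reads than among the many entries with few. Of the 8 subfamilies with a mean normalised count over 1000, 3 rose, 4 fell and 1 did not pass. The background for a rise was 36.2% of all entries and 76.3% of all repeats. For a fall it was 36% of all entries and 2.86% of all repeats. Internal entries made up 5 of the 8, so read count and entry type cannot be told apart here. MuLV-int, RLTR4_MM-int and RLTR4_Mm among the 8 are of the same virus group. The 8 subfamilies held 60.9% of the ERV1 reads in untreated cells and 55.2% after genistein. Over the 86 tested entries the log2 fold change fell with the mean count (Spearman's rho -0.27, Pearson's r -0.30 with the log2 of the mean count), against rho -0.035 over 1118 repeats. These are descriptions over subfamilies that share the same 4 libraries. The standard error followed the mean count closely (rho -0.99), so a large fold change in an entry with few reads is imprecise.

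Entries with a mean under 100 are given for completeness. Of these 49 entries, 29 rose (59.2%), against a background of 36.2% of all entries and 76.3% of all repeats. None fell by edgeR, also at an unadjusted p under 0.05, or by DESeq2. Their median standard error was 0.245, against 0.098 for the entries over that mean, so a fall of a given size was less likely to pass. The largest changes were those of MER57E1, LTR68 and RLTR48C, with log2 fold changes of 1.47, 1.28 and 1.27 and standard errors of 0.38, 0.28 and 0.27 (adjusted p = 0.0023, 0.00069 and 0.00049, edgeR). MER57E1 had 14 and 5 reads in untreated cells and 28 and 28 after genistein, and its log2 fold change was 2.33 without untreated 1 and 0.95 without untreated 2. The lowest were MER67A, MER90a and MER34B at -0.42, -0.39 and -0.19, and none of them passed (adjusted p = 0.36, 0.16 and 0.33, edgeR).

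**Figure D5:**
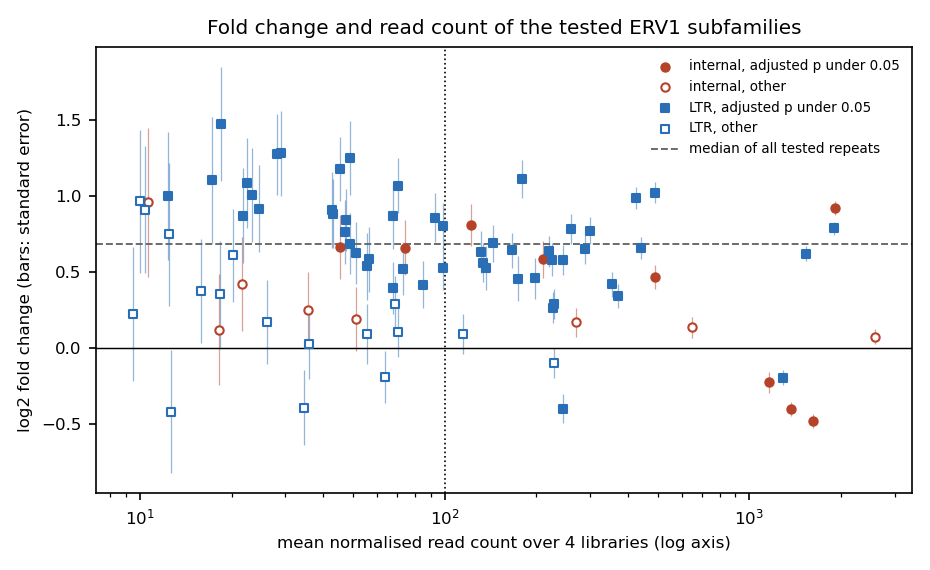
Log2 fold change (vertical axis, bars give the standard error) against the mean normalised read count over the 4 libraries (horizontal log axis) of the 86 tested ERV1 subfamilies, filled where the adjusted p was under 0.05. The dotted line marks a mean of 100, and to the right of 1000 there are 3 entries that rose, 4 that fell and 1 that did not pass.

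Since most repeats rose relative to genes, ERV1 subfamilies were also tested with repeats fitted alone, which sets each of them against repeats at large. This moved the median of all repeats from 0.69 to -0.01, and the median of the ERV1 subfamilies became -0.10, so the rise given above is one relative to genes. At an adjusted p under 0.05, 3 of the 86 were then higher, where the background was 7.89% of 1103 repeats. Lower were 19 of the 86, against a background of 14.7%. The 3 higher entries were RLTR14 (0.32, adjusted p = 0.016, edgeR), RMER2 (0.29, adjusted p = 0.020) and RLTR1B-int (0.22, adjusted p = 0.0027).

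The lower entries against other repeats held 7 of the 17 internal entries and 12 of the 69 LTR entries. Among the 8 rodent-named internal entries, 6 were lower, 1 was higher and 1 did not pass. MuLV-int was lowest at -1.18 with a standard error of 0.04, followed by MER34B-int at -1.10 and the LTR entry RLTR30D_RN at -1.10. MMERGLN-int had -0.93, RLTR4_Mm -0.90, RLTR4_MM-int -0.62, RLTR14-int -0.56 and MuRRS4-int -0.53. The adjusted p-values of these entries ran from 7.1e-09 to 0.0068 (edgeR).

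VL30, a retrotransposon of the same family that was left out above, moved further. Its internal entry MMVL30-int had 34299 and 35674 normalised counts in untreated cells and 81379 and 79241 after genistein, a log2 fold change of 1.20 with a standard error of 0.04 (adjusted p from the same edgeR fit = 6.3e-13). The other 4 entries, named RLTR6, had log2 fold changes from 0.57 to 1.18. The VL30 and RLTR6 entries summed to 55231 and 56720 in untreated cells and 115198 and 113261 after genistein, a log2 ratio of 1.03 against 0.32 for the 113 other ERV1 subfamilies. The ERVK family, the LTR family with the most entries in the table, had a median of 0.56 over 253 tested entries, and ERVL and ERVL-MaLR had 0.76 and 0.73. The difference between these sets was not tested.

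Genes that silence, restrict or admit gammaretroviruses were compared in the same fit. Of 40 listed genes, 37 were tested, and 5 rose, 22 fell and 10 did not pass, with a median log2 fold change of -0.26. The background was 33.5% of all tested genes for a rise and 38.2% for a fall. Syna and Synb, genes of retroviral origin, had no reads, and Mela was not matched. Past all thresholds only Suv39h2 fell.

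In the silencing pathway, Trim28, the corepressor that KRAB zinc finger proteins recruit (GRCm38 chromosome 7, 12999114 to 13031035), had 12023 and 11626 normalised counts in untreated cells and 6178 and 6024 after genistein. The log2 fold change was -0.95 (standard error 0.04, adjusted p = 6.9e-12, edgeR). Atf7ip, the partner of Setdb1 (chromosome 6, 136506167 to 136610862), went up from 1480 and 1605 to 3080 and 2940 (0.97, standard error 0.04, adjusted p = 1.1e-11, edgeR). Setdb1 itself (-0.07, adjusted p = 0.072) and Zfp809, the zinc finger protein that binds the primer binding site of murine leukemia virus (-0.07, adjusted p = 0.30), did not pass. Of the 10 genes of this pathway, 2 rose and 4 fell.

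Of the 9 listed genes of histone and DNA methylation 8 fell, and of the 4 of nucleosome assembly 3 fell, while Ehmt1 (-0.02) and Atrx (-0.04) did not pass. Suv39h2 had -1.01, Uhrf1 -0.69, Hells -0.61, Suv39h1 -0.61 and Dnmt1, the maintenance DNA methyltransferase, -0.57. Chaf1b, a subunit of the chromatin assembly factor, had -0.85 and Daxx, an H3.3 chaperone, -0.55. All 3 genes of the HUSH complex fell, by 0.31 to 0.38 on the log2 scale. Sumo2 had -0.77.

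Restriction factors and receptors were mixed. Fv1, a restriction factor against murine leukemia virus that is itself of retroviral origin (chromosome 4, 147868979 to 147870358), had 232 and 240 in untreated cells and 328 and 346 after genistein (log2 fold change 0.51, standard error 0.09, adjusted p = 7.9e-05, edgeR). Apobec3, a deaminase that acts on retroviruses, also rose (0.40, adjusted p = 1.5e-05). Of the 7 restriction factors, 2 rose and 2 fell. Among the receptors, Xpr1, which admits xenotropic and polytropic viruses (chromosome 1, 155275701 to 155417415), had 1461 and 1624 in untreated cells and 3048 and 3063 after genistein (0.99, standard error 0.05, adjusted p = 1.2e-11, edgeR). Slc20a1 and Slc20a2, the latter the receptor of amphotropic viruses, fell by 0.26 and 0.33 on the log2 scale, and Slc7a1, the receptor of ecotropic viruses, did not pass (-0.07, adjusted p = 0.096).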

How the data were processed

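Ribosomal RNA was depleted and paired ends were read by the authors, who trimmed with Trim Galore, aligned to mm10 with STAR keeping multiply aligned reads, and counted with TEtranscripts. The deposited values are raw counts per gene and repeat subfamily. Genes take reads before repeats, so ERV1 reads inside annotated exons are missing, and how shared reads were divided among related subfamilies is uncertain. The strand setting is not given in the sources used here. The authors compared groups with DESeq2. One entry without a name, at most 0.00314% of the counts, was left out.

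Genes and repeats were fitted in 1 table with edgeR 4.0.16 (R 4.3.3): filterByExpr by group, TMM scaling and the quasi-likelihood test, and Benjamini-Hochberg adjusted over 17358 entries (16240 genes, 1118 repeats). A standard error is the log2 fold change divided by the square root of F. Gene symbols were matched for 47224 of 47937 identifiers, and coordinates are GENCODE M21 on GRCm38, counted from 1. The test was checked on simulated counts with 200 changed entries, drawn at random and changed up and down alike. The simulation held no shared shift of repeats against genes, so it does not cover that setting.

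The subfamilies, lists and naming rules were chosen with earlier results of these data known. The text names every internal entry with a mean over 100, the 10 highest and 5 lowest LTR entries over that mean, LTR entries sharing the name of such an internal entry, the 3 highest and 3 lowest entries under it, and listed genes past a log2 size of 0.5 or with a role in silencing or entry. Other entries were named after their values were seen. The untreated pair and the genistein pair differed by more than sampling noise over all entries (chi-square per degree of freedom 5.7 and 13.1) and by less over ERV1 subfamilies (1.41 and 1.18). Alternatives covered scaling, filter, tool (DESeq2 1.42.0), thresholds, a replicate block and left-out libraries. The limit of 3 reads given for a count of 0 covers counting error only, since PCR copies of a molecule were not told apart.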

Additional observations from a re-analysis of the deposited data

Results flagged for a closer look

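LTRIS6 was too low to be tested, and its 9 reads all came from the genistein libraries, 7 from genistein 1 and 2 from genistein 2, with none in either untreated library, which allows up to 3 reads in each. The entry with no gene or repeat name, outside every comparison, had normalised counts of 639 and 681 without genistein and of 926 and 837 with it (log2 ratio 0.42). Groups of 2 libraries were too small to look for a library far from the others.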

How the results depend on the processing

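The ERV1 median stayed positive with the other ways of scaling genes and repeats together, such as factors from genes alone (0.64). Its direction changed only with repeats fitted alone, which sets ERV1 entries against repeats and not genes. With repeats fitted alone, the median log2 fold changes reversed to -0.10 for all ERV1 subfamilies, -0.45 for internal and -0.0675 for LTR entries, and the log2 ratios of the summed counts to -0.61 for internal and -0.17 for LTR entries. Then 3 entries were higher and 19 lower at an adjusted p under 0.05, and 0 higher and 3 lower past all thresholds. Among named entries, MuRRS4-int (-0.53), MuRRS-int (-0.23), RLTR14-int (-0.56), RLTR4_MM-int (-0.62), RLTR14_RN (-0.43), RLTR1A2_MM (-0.61), MERV1_I-int (-0.12), LTRIS2 (-0.0451), MURVY-LTR (-0.0555), RLTR1B (-0.0399) and RLTR1D (-0.0101) reversed. This fit centres repeats near 0 by construction. Library totals moved the ERV1 median to 0.66 and the LTR sum to 0.60, factors from genes alone moved the LTR sum to 0.57, and leaving out MLTR14 moved it to 0.48. DESeq2 called 34 entries higher instead of 56; the cause was not tested. Past all thresholds, 11 entries were higher with a mean over 10, 0 with a mean over 1000 and 1 with no filter, instead of 2.

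Leaving out each library gave 43 to 55 higher and 4 to 5 lower entries, 1 (without untreated 2, neither RLTR14 nor MER31A) to 3 (without genistein 1) higher and 0 lower past all thresholds, and medians from 0.53 to 0.67 for all, 0.20 to 0.48 for internal and 0.58 to 0.69 for LTR entries. Each of these fits applied the filter on low counts anew and tested 87 to 91 ERV1 subfamilies. The summed internal entries ran from 0.04 to 0.15 and the LTR entries from 0.49 to 0.55. Of the listed genes, 5 were higher and 21 to 22 lower. Of 124 values of single named entries in these fits, 118 kept direction and side of the threshold.

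MuLV-int, MER34B-int, RLTR4_Mm and RLTR30D_RN stayed lower and past the threshold in every fit run. Libraries with the same replicate number did not deviate together (correlation -0.03), so they were not taken as pairs. With the replicate block the ERV1 median was 0.60, with 54 higher and 5 lower entries.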
